A study of Mus musculus with 6 samples.

Results

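DNA methylation in multipotent progenitors (MPP) was compared with that in long-term haematopoietic stem cells (LT-HSC) of Control mice, the whole span of early blood differentiation covered by the study. Positions were cytosines of CpG dinucleotides, kept apart by strand, on the autosomes and read at least 10 times in both libraries. There were 751992 such positions among 1325626 autosomal positions present in any library. They filled 33756 windows of 1 kb with at least 5 positions each. The comparison used 2 of the 6 samples, with 1 pooled library a side and no replicate, so every test below compares the reads of 2 libraries and not the 2 cell types.

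Enhanced reduced representation bisulfite sequencing (eRRBS) reads restriction fragments rich in CpGs after bisulfite has converted unmethylated cytosines. The Control mice were male C57BL/6 animals aged 7 to 10 months with the genotype IDH1+/+ VavCre+. They therefore carried 2 normal Idh1 alleles together with Cre recombinase driven by the blood-cell promoter Vav, and both cell types share this Cre. Marrow of 6 mice was pooled per group. The MPP gate was Lin- Sca+ Kit+ CD150- and the LT-HSC gate was Lin- Sca+ Kit+ CD150+ CD48-, while the short-term stem cells (ST-HSC), used here to sort sites by level and to set their level beside the others, were Lin- Sca+ Kit+ CD150+ CD48+. MPP and LT-HSC libraries of IDH1+/lsl VavCre+ littermates, called Idh1 KI, served as a second pair that shares no library with the Control pair. These mice had the same strain, sex and age range and carried 1 knock-in Idh1 allele, which the labels call lsl, beside the same Cre. The name of the Control MPP file placed it in lane 5 and that of the Control LT-HSC file in lane 6, so lane and cell type cannot be told apart.

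Stem cells of the marrow renew themselves for life, and multipotent progenitors derived from them still give rise to all blood lineages but renew only briefly. Methyl groups on CpGs are placed by Dnmt3a and Dnmt3b, copied at division by Dnmt1 and oxidised by the Tet enzymes. Most CpG-dense gene starts are kept free of methylation, and sites inside and between genes carry most of the differences known between blood cell types.

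The sequences below belong to sites whose levels are described further on. They come from RefSeq on GRCm38.p6, the build called mm10, and run 5′ to 3′ on the gene's own strand. For the gene starts, the 250 bases before the start are shown, and capitals mark the CpGs read in both libraries. The Hoxa5 start (chr6:52204588-52204837, minus strand) is shown because it held the best covered of the large rises, and 7 of its 28 CpGs in this stretch were read.

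Hoxa5: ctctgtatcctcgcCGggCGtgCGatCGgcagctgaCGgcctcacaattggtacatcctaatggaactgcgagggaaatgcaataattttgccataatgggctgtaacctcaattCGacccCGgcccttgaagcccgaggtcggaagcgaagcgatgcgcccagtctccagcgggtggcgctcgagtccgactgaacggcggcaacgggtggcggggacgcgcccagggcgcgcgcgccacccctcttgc

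Acta1 (chr8:123894776-123895025, minus strand) is shown as a muscle gene start that rose, with 6 of 9 CpGs read.

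Acta1: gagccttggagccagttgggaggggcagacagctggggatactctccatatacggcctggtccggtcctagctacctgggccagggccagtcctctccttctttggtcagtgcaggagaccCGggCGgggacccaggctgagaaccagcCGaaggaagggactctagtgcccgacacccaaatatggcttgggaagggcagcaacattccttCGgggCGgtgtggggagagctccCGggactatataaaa

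Kcnip3 has 2 starts on the minus strand. The upstream one (chr2:127522095-127522344) holds 4 CpGs, all read, and the downstream one (chr2:127482500-127482749) holds 23, of which 2 were read. They are shown together because their levels differed.

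Kcnip3 upstream start: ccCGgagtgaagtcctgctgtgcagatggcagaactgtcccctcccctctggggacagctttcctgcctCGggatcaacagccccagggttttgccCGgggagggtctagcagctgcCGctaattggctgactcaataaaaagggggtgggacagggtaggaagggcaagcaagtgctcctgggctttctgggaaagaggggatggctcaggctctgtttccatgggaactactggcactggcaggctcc
Kcnip3 downstream start: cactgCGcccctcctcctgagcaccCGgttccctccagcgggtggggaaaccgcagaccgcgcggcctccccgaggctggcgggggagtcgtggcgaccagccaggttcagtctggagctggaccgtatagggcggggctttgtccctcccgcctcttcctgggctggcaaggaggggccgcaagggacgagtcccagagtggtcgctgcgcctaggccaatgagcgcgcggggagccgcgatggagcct

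The largest fall among the named windows lay beside the gene of miR-142, a microRNA abundant in blood cells. The hairpin lies at chr11:87756864-87756927 on the plus strand, and capitals mark the seed, bases 2 to 8 of each mature strand.

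miR-142a-5p: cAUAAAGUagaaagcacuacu
miR-142a-3p: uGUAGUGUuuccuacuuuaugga

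Summed over all positions of a file, coverage came to 44752796 reads in MPP and 48966606 in LT-HSC, with medians of 35 and 37 reads per position. Of the shared positions, 60.8% in MPP and 57.8% in LT-HSC were under 5%, and 21.5% in MPP and 20.2% in LT-HSC were at 95% or more. The depth overstates the precision. Where a CpG had reads on each strand and lay at 20 to 80%, its strands disagreed as much as if 2.30 independent molecules stood behind a position in MPP and 3.02 in LT-HSC. Reads of a window or gene end are summed over its positions, so a read across several CpGs counts at each. Intervals and upper limits computed from reads therefore cover the error of counting alone and are too tight.

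Averaged over all shared positions, methylation was nearly equal in the 2 cell types. The mean level was 28.58% in MPP and 28.54% in LT-HSC, a difference of 0.0442 percentage points (points below). Pooled over reads, the levels were 25.66% in MPP and 26.04% in LT-HSC, a difference of -0.377 points, so the sign of the mean depends on the weighting. Per autosome the difference of means lay between -0.204 points on chromosome 16 and 0.222 points on chromosome 4, and 11 autosomes were higher in MPP. Positions were also sorted by their level in ST-HSC, a library on neither side. Those at 20 to 80% in ST-HSC averaged 45.5% in MPP and 44.0% in LT-HSC, 1.52 points higher in MPP, but pooled over reads they were at 38.4% in MPP and 38.6% in LT-HSC, a difference of -0.242 points. Those under 20% differed by -0.0293 points and those over 80% by -0.316 points.

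Local differences ran in both directions. A window was called where the reads of the 2 libraries differed by a two-sided Fisher exact test (Benjamini-Hochberg adjusted p under 0.01 over all windows). The mean of its positions also had to differ by at least 10 points, and the difference pooled over reads had to have the same sign. By this rule 1597 windows (4.73% of those tested) were higher in MPP and 1215 (3.6%) were lower. Differences of at least 25 points were found in 359 higher and 213 lower windows, and of at least 40 points in 100 and 46. Just inside the limit, at 10 to 11 points, 182 windows were higher and 152 lower. Just outside it, at 9 to 10 points with an adjusted p under 0.01 in the exact test, 182 were higher and 207 lower. The condition on the pooled sign was not applied to that count. Among windows with 10 or more positions, 369 were higher and 160 lower.

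Both strands of a site should carry nearly the same level, and a call was checked on each strand of its window. Of the called windows, 755 higher and 473 lower had 3 positions on each strand. Each strand differed by at least 10 points in the direction of the call in 337 of the higher windows (44.6%, and 1.47% of the 22954 windows with 3 positions a strand). The same held for 164 of the lower windows (34.7%, and 0.714% of the 22954). The strands had opposite signs in 80 higher and 64 lower windows. The 2 strands of a single library differed by at least 10 points in 13.9% of these windows in MPP and 10.98% in LT-HSC. The 2 libraries differed by that much in 6.18%. The strands were read largely at different CpGs and the libraries at the same positions, so these shares are not like for like. The 12 largest rises and 12 largest falls named below had to differ on each strand, while windows named from the gene lists did not.

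At single positions, called at 25 points and an adjusted p under 0.01 in the exact test, 22437 (2.98%) were higher in MPP and 19759 (2.63%) lower. Of 115875 CpGs read on both strands in both libraries, 8951 were called on at least 1 strand. Among these, 362 were called higher and 192 lower on both strands, and 280 in opposite directions on the 2 strands.

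The share of windows called differed with the level of the site. Of windows at 20 to 80% in ST-HSC, 23.5% were called higher and 14.3% lower. Of windows at 0 to 10% the shares were 1.47% and 0.754%, and at 90 to 100% they were 2.54% and 3.89%, the only level class with more falls than rises. By place, windows at annotated gene starts were called least often, 2.37% higher and 1.46% lower. In gene bodies 6.18% were higher and 4.63% lower, and between genes 6.92% and 6.41%. Chromosome 18 was left out of the count by place, because its starts were not used here. Exons and introns were not analysed here. The share called also fell with the number of positions, from 7.62% higher and 6.55% lower at 5 to 9 positions. At 40 or more positions it was 0.337% higher and 0.0962% lower. How much the number of positions or the counting spread adds to the contrasts of level and place was not tested.

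**Figure D1:**
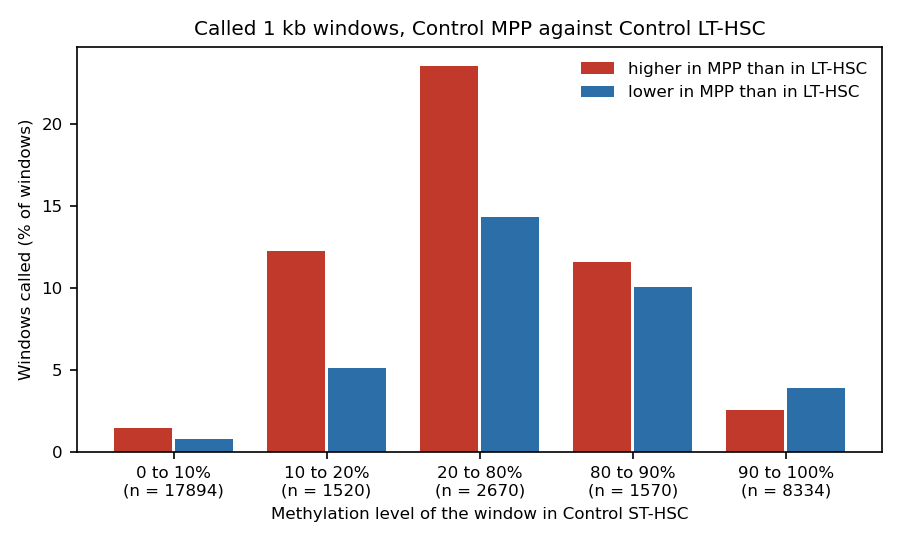
Share of 1 kb windows called higher (red) or lower (blue) in Control MPP than in Control LT-HSC, in percent of the windows of each class, by the window's level in Control ST-HSC. Calls were most frequent at 20 to 80% (23.5% higher, 14.3% lower), and at 90 to 100% more windows were lower (3.89%) than higher (2.54%).

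The windows with the largest differences were named by a rule that asked for at least 10 positions, 3 on each strand, and 10 points on each strand. Under this rule 169 windows were higher and 47 lower, and the 12 largest of each direction are described. The rises were between 46.8 and 78.7 points, and 11 of the 12 windows lay in gene bodies. The plot of both cell types by window shows the levels.

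**Figure D2:**
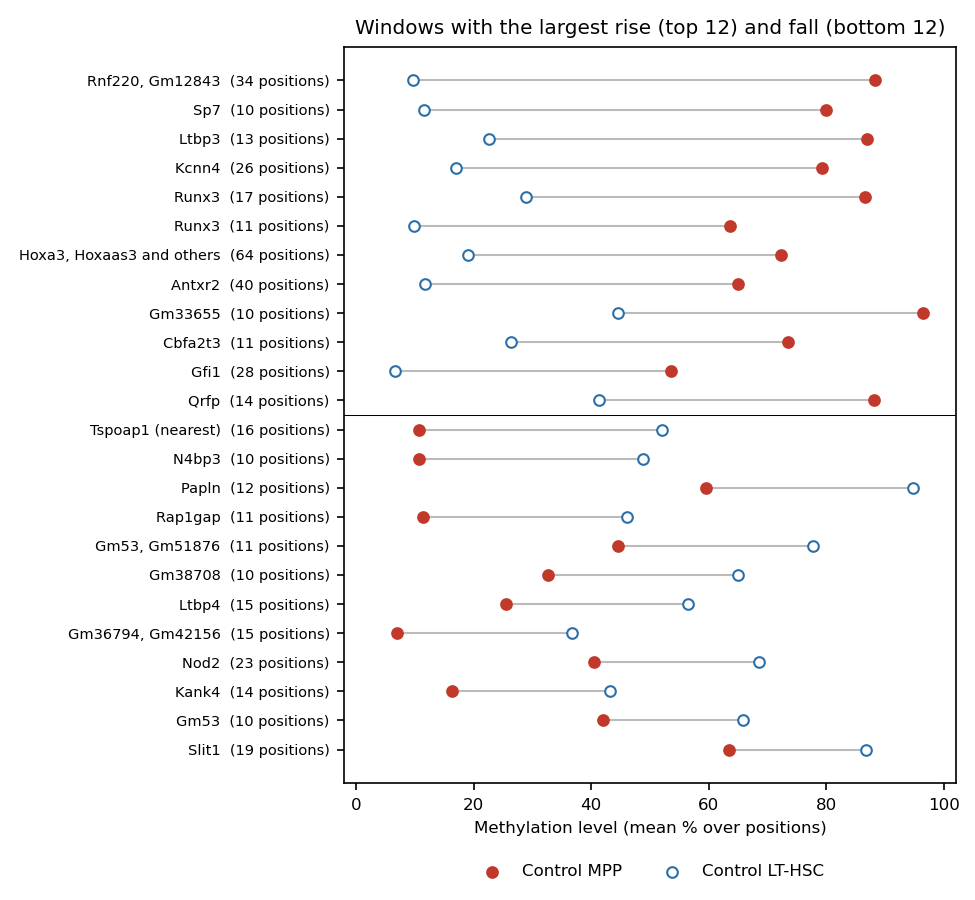
Mean methylation level (percent, over the positions of the window) in Control MPP (filled red) and Control LT-HSC (open blue) for the 12 windows with the largest rise, above the line, and the 12 with the largest fall, below it, ordered by the size of the difference and labelled with the genes they lie in. The window labelled Hoxa3, Hoxaas3 and others holds the Hoxa5 start. All 12 upper windows were at 53.5% or more in MPP, and all 12 lower windows were at 36.7% or more in LT-HSC.

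Runx3, a Runt factor that acts in T cells and in blood progenitors, had 2 of the named windows. In the window at chr4:135175001-135176000 its level was 86.7% in MPP and 28.8% in LT-HSC over 17 positions. Pooled over 1711 MPP reads and 1180 LT-HSC reads, this was 87.2% (95% Wilson interval 85.5 to 88.7) against 18.8% (16.7 to 21.1). In the window at chr4:135155001-135156000, nearer to the start, it was 63.6% in MPP and 9.80% in LT-HSC over 11 positions. The 250 bases before the only Runx3 start that was read, at chr4:135152545, were not part of the rise. There 33 of 38 CpGs were read, with means of 0.419% in MPP and 2.36% in LT-HSC. The gene reaches further upstream, with a called window at chr4:135140001-135141000, at 17.0% in MPP and 0.539% in LT-HSC. That window did not reach 10 points on the reverse strand.

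Gfi1, a zinc finger repressor that restrains stem cell division and directs granulocyte development, was at 53.5% in MPP and 6.66% in LT-HSC over 28 positions at chr5:107721001-107722000. All 28 positions were higher in MPP. Their levels ran from 8.51 to 93.9% with a median of 57.6% in MPP, and from 0 to 37.2% in LT-HSC. In LT-HSC 19 positions had no methylated read among 12 to 52 reads. By counting alone this allows a level of up to 5.77% at the deepest and 25% at the shallowest of them. Cbfa2t3, which encodes a corepressor of blood cell genes, was at 73.4% in MPP and 26.3% in LT-HSC over 11 positions at chr8:122674001-122675000.

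The largest rise was in Rnf220, which encodes a ubiquitin ligase, at chr4:117304001-117305000. It was at 88.3% in MPP and 9.60% in LT-HSC, with all 34 positions higher in MPP, 19 of them at 100%. Sp7, the osteoblast factor osterix, was at 80% in MPP and 11.5% in LT-HSC over 10 positions, but on 135 MPP reads, the fewest of the 12 windows. Ltbp3, a binding protein of latent TGF-beta, was at 86.9% in MPP and 22.6% in LT-HSC. Kcnn4, a calcium-activated potassium channel, was at 79.3% in MPP and 17.0% in LT-HSC, higher at 26 of 26 positions. Antxr2, a receptor of anthrax toxin, was at 64.9% in MPP and 11.7% in LT-HSC over 40 positions. Qrfp, a neuropeptide gene, was at 88.2% in MPP and 41.4% in LT-HSC, and Gm33655, a predicted gene, at 96.4% in MPP and 44.6% in LT-HSC. In Gm33655 alone of the 12, the position levels of the 2 libraries did not overlap. The largest adjusted p of the 12 windows was 1.77e-32 by the Fisher exact test.

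The Hoxa5 start stood out by coverage, with 64 positions in the window chr6:52204001-52205000. Hoxa5 is a homeobox factor of the Hoxa cluster, whose members pattern the body axis and are active in blood stem cells. Its window was at 72.3% in MPP and 19.02% in LT-HSC. Over 3040 MPP reads and 2940 LT-HSC reads the pooled levels were 78.3% (76.8 to 79.7) and 18.03% (16.7 to 19.5). Positions ran from 0 to 100% with a median of 76.7% in MPP, and from 0 to 78.9% with a median of 10.4% in LT-HSC. Of the 64, 58 were higher in MPP and 6 lower, so the ranges overlap.

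In the printed Hoxa5 sequence, counted in bases before the start, the CpG at -236 was at 61.9% in MPP and 21.1% in LT-HSC. The next 3, at -232, -228 and -224, were at 100% in MPP on 40 to 43 reads each. In LT-HSC the first of them was at 78.9% and the other two at 26.3%, on 19 reads each. The CpGs at -214, -135 and -129 were at 62.8, 81.0 and 79.7% in MPP and at 22.2, 35.0 and 30.0% in LT-HSC. All 7 were higher in MPP, and their means were 83.6% and 34.3%. Neighbouring positions of 1 fragment often repeat the same level, as the same reads can cover them.

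Further rises of the Hoxa cluster lay in Hoxa3. It held 3 adjacent called windows (chr6:52175001-52178000), 32.9 to 45.9 points higher. Of these, 1 differed by 10 points on each strand, at 64.1% in MPP and 31.1% in LT-HSC over 43 positions, and the other two were read on a single strand. RefSeq's extent of Hoxa3 includes transcripts that run across Hoxa5, so its windows include those of Hoxa5.

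Gene ends of the cluster members differed from each other. Hoxa5 was at 70.3% in MPP and 14.5% in LT-HSC over 44 positions. Hoxa6 was at 20.6% in MPP and 11.4% in LT-HSC and Hoxa2 at 10.8% and 3.58%, both under the 10 points of a call. Hoxa10 fell to 0% of 174 reads summed over 9 positions in MPP, against 12.3% in LT-HSC. By counting alone this allows a level of up to 1.72% in MPP. Hoxa4 (1.46% in MPP, 3.22% in LT-HSC), Hoxa11 (4.96% and 10.1%), Hoxa13 (2.18% and 6.11%) and Evx1 (7.42% and 12.04%) were not called. Hoxa3, Hoxa7 and Hoxa9 had no gene end with enough positions.

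**Figure D3:**
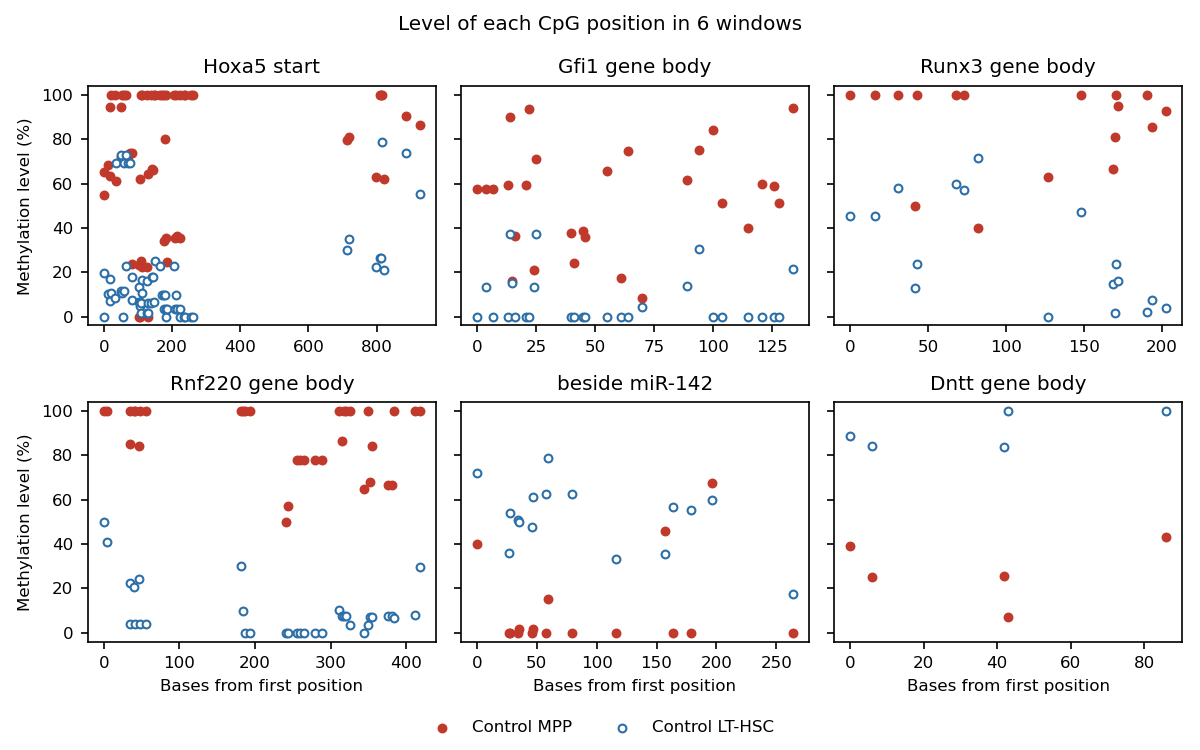
Methylation level of each CpG position (percent) against its distance in bases from the first position of the window, in Control MPP (filled red) and Control LT-HSC (open blue), for 4 windows that were higher and 2 that were lower in MPP. In Gfi1 all 28 positions and in Rnf220 all 34 were higher in MPP, while in the window beside miR-142 14 of 16 and in Dntt all 5 were lower.

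The falls were smaller, 23.4 to 41.3 points, and the largest of them lay between genes at chr11:87757001-87758000, 194 bases from Tspoap1 and 46 bases from the microRNA gene Mir142b, which overlaps the printed miR-142 hairpin on the other strand. Its level was 10.7% in MPP and 52.1% in LT-HSC over 16 positions. The pooled level was 9.95% of 1266 reads (8.42 to 11.7) in MPP and 53.7% of 1126 reads (50.8 to 56.6) in LT-HSC. In MPP 10 positions had no methylated read among 15 to 179 reads, which by counting alone allows up to 1.68% at the deepest. In LT-HSC the 16 positions ran from 17.4 to 78.6%. The first measured position lay 229 bases beyond the end of the miR-142 hairpin and was at 40.2% in MPP and 72.0% in LT-HSC.

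N4bp3, which encodes a partner of the ubiquitin ligase Nedd4, fell to 10.7% in MPP, against 48.9% in LT-HSC, over 10 positions. Nod2, a sensor of bacterial cell wall fragments, fell to 40.5% in MPP, against 68.5% in LT-HSC, over 23 positions. Papln was at 59.5% in MPP and 94.8% in LT-HSC, and Rap1gap, which switches off the GTPase Rap1, at 11.5% in MPP and 46.1% in LT-HSC. A window of Gm53 and Gm51876, predicted genes, was at 44.6% in MPP and 77.8% in LT-HSC and ended 164 bases before the microRNA gene Mir196a-1. A second window of Gm53 was at 42.0% in MPP and 65.9% in LT-HSC. Slit1, a guidance cue of axons, was at 63.4% in MPP and 86.8% in LT-HSC, and Kank4 at 16.4% in MPP and 43.2% in LT-HSC. Ltbp4 (25.5% in MPP, 56.4% in LT-HSC), Gm38708 (32.6% and 65.0%) and the shared start of Gm36794 and Gm42156 (7.03% and 36.7%) made up the 12. In each of these 12 windows the position levels of the 2 libraries overlapped.

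At gene ends, the stretch from 1000 bases outside to 500 bases inside the gene's start (or its CpG-rich end where no strand was known) was tested for 12175 genes. Of these, 256 (2.1%) were higher and 120 (0.986%) lower in MPP, with a median difference of -0.199 points. The largest rise was at Nap1l5, an imprinted gene that lies within Herc3, with 81.0% in MPP and 11.3% in LT-HSC over 7 positions. It rested on 113 MPP reads, and its strands differed by 33.3 points (forward, 2 positions) and 84.2 points (reverse). In the KI pair the Nap1l5 end was 9.57 points higher in MPP. Acta1, the actin of skeletal muscle, was at 67.0% in MPP and 19.1% in LT-HSC. In its printed sequence the CpG at -129 was read on both strands, at 81.6% and 55.6% in MPP and at 18.8% and 0% in LT-HSC, with 32 and 11 reads in LT-HSC. Acta1 at -38 and -15 was at 100% in MPP, against 30.8% and 28.0% in LT-HSC, while -33 had no methylated read among 17 in MPP and 26 in LT-HSC.

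Kcnip3, a calcium-binding partner of potassium channels, was at 91.7% in MPP and 56.5% in LT-HSC at the gene end around its upstream start. In the printed upstream sequence of Kcnip3 the 4 CpGs averaged 88.8% in MPP and 40.8% in LT-HSC over 6 positions. The CpG at -248 was high in both libraries, at 100% on each strand in MPP and at 83.3% and 77.8% in LT-HSC. The one at -133 was at 100% in MPP and 22.9% in LT-HSC. The 2 CpGs read at the CpG-dense downstream start averaged 6.28% in MPP and 5.22% in LT-HSC.

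Kdm6b, which removes methyl groups from lysine 27 of histone H3, was at 70.9% in MPP and 31.2% in LT-HSC at its CpG-rich end over 21 positions. Dnajb3, a heat shock co-chaperone, was at 49.4% in MPP and 6.37% in LT-HSC, Sp7 at 44.2% and 6.53%, and Nradd, a relative of the neurotrophin receptor, at 47.5% and 12.1%. On the reverse strand alone the Sp7 end was 18.6 points higher and no longer called (adjusted p = 0.494, Fisher exact test). The strands of Nradd differed by 7.62 points (forward) and 52.0 points (reverse). The largest fall was at Myog, the muscle factor myogenin, with 34.3% in MPP and 84.0% in LT-HSC over 5 positions. The forward strand of Myog differed by -6.98 points and the reverse by -78.2 points. The gene ends of Tspoap1 (11.8% in MPP, 51.9% in LT-HSC, overlapping the window beside miR-142), Zfp575 (6.41% and 45.6%) and the homeobox gene Hoxd4 (3.85% and 33.2%) followed. The forward strand of Zfp575 differed by -72.8 points and the reverse by -5.56 points. Those of the serotonin receptor gene Htr3b (35.5% and 63.4%), the sphingomyelinase gene Smpd5 (17.4% and 42.4%) and the imprinted gene Asb4 (20.1% and 43.9%) also fell. Kcnab1, a potassium channel subunit, fell to no methylated read of 83 summed over 6 positions in MPP, against 26.5% in LT-HSC. By counting alone this allows up to 3.61% in MPP.

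Stem cell regulators held several rises inside the genes. Of the list of 37 stem cell regulators and surface genes, 16 gene ends were measured and none was called, beside 2.1% higher and 0.986% lower over all gene ends, a number of ends too small to tell from those shares. Their median difference was -0.438 points, beside -0.199 points over all. Of 98 windows inside the list's genes, 15 (15.3%) were higher and 2 (2.04%) lower, beside 4.73% and 3.6% of all windows. The median difference of the 98 windows was 0.182 points. The windows inside list genes that are named from here on were chosen after their values were seen.

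Prdm16, a zinc finger factor needed to maintain stem cells, held 6 higher and 2 lower windows among 20. Its largest rise was at 92.0% in MPP and 11.2% in LT-HSC over 5 positions and only 99 MPP reads. A second, differing on each strand, was at 92.2% in MPP and 36.2% in LT-HSC over 7 positions. The start of Prdm16 was at 4.06% in MPP and 4.55% in LT-HSC over 71 positions.

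Gata2, a zinc finger factor of stem cells, held 4 higher windows among 9. Of these, 3 lay within 5 kb of each other (chr6:88200001-88205000), and the largest was at 83.6% in MPP and 44.0% in LT-HSC. None of these 3 differed by 10 points on each strand. The other Gata2 window, at a gene start, was at 21.6% in MPP and 4.75% in LT-HSC and also did not. The gene end tested for Gata2 was at 2.99% in MPP and 3.28% in LT-HSC over 38 positions. Of the remaining genes on the list with a higher window, Procr, the endothelial protein C receptor that marks stem cells, was at 97.6% in MPP and 82.4% in LT-HSC. Mecom (14.7% in MPP, 1.10% in LT-HSC), Bmi1 (11.2% and 0.461%) and Vwf (84.3% and 62.8%) had 1 such window each.

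Erythroid and megakaryocyte genes showed a like count. Of 48 windows inside them, 7 (14.6%) were higher and 1 (2.08%) lower, beside 4.73% and 3.6% of all windows. None of 9 gene ends was called, too few to tell from the shares over all gene ends. Itga2b, the platelet integrin CD41, was at 65.2% in MPP and 16.2% in LT-HSC over 7 positions at chr11:102466001-102467000, with all 7 higher in MPP. Its gene end was at 7.14% in MPP and 4.76% in LT-HSC. Gfi1b, a repressor needed for red cells and platelets, was at 63.2% in MPP and 28.0% in LT-HSC over 6 positions. Zfpm1, which encodes FOG1, the partner of Gata1, held 3 higher windows among 9, with 47.4% in MPP and 2.23% in LT-HSC in the largest. In that window of Zfpm1 the forward strand differed by 4.10 points and the reverse strand by 100 points.

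Of 73 windows in lymphoid genes 1 (1.37%) was higher and 1 lower, beside 4.73% and 3.6% of all windows. Of 29 windows in myeloid genes 1 (3.45%) was higher, in Gfi1, a share near that of all windows. The lymphoid fall was in Dntt, whose enzyme adds bases at the joints of antigen receptor genes and marks the earliest lymphoid progenitors. It was at 28.0% in MPP and 91.3% in LT-HSC over 5 positions at chr19:41039001-41040000. The positions of Dntt read 39.3, 25, 25.6, 6.98 and 43.2% in MPP, against 88.5, 84.1, 83.9, 100 and 100% in LT-HSC, on 43 to 88 reads each. All 5 MPP values lay below all 5 LT-HSC values. With 5 positions, 2 of them on the reverse strand, the window was too small for the naming rule. In ST-HSC the window was at 51.0%.

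Among other lists, 15 of 215 windows (6.98%) in further homeobox and PAX genes were higher and 1 (0.465%) lower. The shares over all windows were 4.73% and 3.6%. At most of the rises the LT-HSC level was low, as at Six2 (23.1% in MPP, 5.24% in LT-HSC). Gbx2 was the largest, at 79.2% in MPP and 44.5% in LT-HSC. In the Hoxb cluster 2 of 26 windows (7.69%) were higher, and in the Hoxd cluster 3 of 28 (10.7%). Of these, 1 in the Hoxb cluster and 0 in the Hoxd cluster differed by 10 points on both strands. In the Hoxc cluster 2 of 24 (8.33%) were higher and 3 (12.5%) lower, 2 of the falls in Hoxc6. Endothelial and stromal genes had 4 higher (11.1%) and 2 lower (5.56%) windows of 36. Among them was Kdr, the VEGF receptor, at 74.8% in MPP and 27.5% in LT-HSC with all 8 positions higher in MPP. Tumour suppressors and WNT inhibitors had 6 higher (5.17%) and 1 lower (0.862%) of 116, and 3 of the 6 were in Runx3. Cell cycle genes had 1 lower window (1.85%), in Ccnd2, and no higher one among 54 by the exact test.

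**Figure D4:**
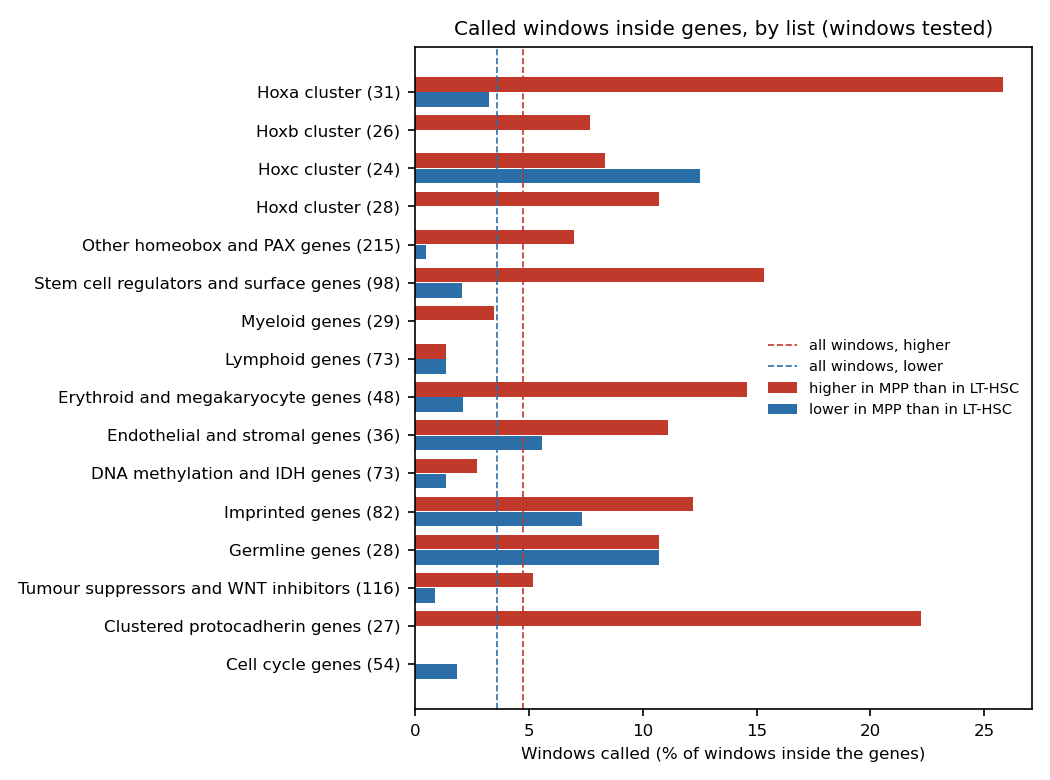
Percent of the windows inside the genes of each list that were called higher (red) or lower (blue) in Control MPP than in Control LT-HSC, with the number of windows tested beside each list and dashed lines at the shares over all windows (4.73% higher, 3.6% lower). The Hoxa cluster (25.8%), protocadherin (22.2%), stem cell (15.3%) and erythroid and megakaryocyte (14.6%) lists had the highest shares of rises.

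Imprinted genes, of which one parental allele is methylated in most tissues, moved both ways. Of 82 windows 10 (12.2%) were higher and 6 (7.32%) lower, beside 4.73% and 3.6% of all windows. Only 1 of each differed by 10 points on both strands. The rise was in Impact, at 75.0% in MPP and 37.8% in LT-HSC over 15 positions, and the fall was at Asb4. Gnas was at 71.4% in MPP and 28.3% in LT-HSC over 5 positions of 1 strand. Commd1 was at 1.54% in MPP and 32.5% in LT-HSC, and Mkrn3 at 24.5% in MPP and 47.5% in LT-HSC over 23 positions. The forward strand of that Mkrn3 window differed by -38.0 points and the reverse by -6.59 points. Of germline genes, kept methylated in body cells, 3 of 28 windows (10.7%) were higher and 3 (10.7%) lower, and 1 of each differed by 10 points on both strands. Ddx4, a germ cell helicase, was at 91.2% in MPP and 75.5% in LT-HSC over 44 positions. In clustered protocadherin genes 6 of 27 windows (22.2%) were higher and none lower by the exact test, and 2 of the 6 differed by 10 points on both strands. All 11 protocadherin gene ends called higher share 1 set of 6 positions, at 74.8% in MPP and 62.9% in LT-HSC.

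No measured gene end of a Dnmt or Tet gene was called, and among the Dnmt genes only Dnmt3b had one. Of 21 gene ends of the methylation and IDH list, 1 was higher, that of the histone demethylase Kdm6b, and none lower. Over all gene ends the shares were 2.1% and 0.986%. Dnmt3b was at 2.02% in MPP and 2.31% in LT-HSC, and Tet1 at 1.12% and 1.93%. Tet2 was at 0% of 1098 reads summed over 21 positions in MPP, against 3.65% in LT-HSC. By counting alone this allows up to 0.273% in MPP. A window at the start of Idh1 was at 0.238% in MPP and 12.9% in LT-HSC over 7 positions, a call that did not reach 10 points on the forward strand. In the KI pair this window differed by -0.488 points. The Idh1 gene end, over 22 positions, was at 0.478% in MPP and 0.909% in LT-HSC and was not called.

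The gate genes that could be read were low in both libraries. Kit was at 0.889% in MPP and 0.667% in LT-HSC, Cd34 at 2.93% and 4.68% and Flt3 at 6.80% and 10.8%, none called. Slamf1 and Cd48, which encode the surface proteins that separate the gates, had no gene end with enough positions, and neither had Ly6a or Procr. Of the markers of other blood cells, Ebf1 was at 3.20% in MPP and 2.11% in LT-HSC and Pf4 at 7.86% and 4.52%. No myeloid or T cell marker end was measured, so the purity of the sort could not be read from these data. In bulk DNA, a different mixture of cells within a gate and a change within cells cannot be told apart.

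The Idh1 KI pair gave a second reading of the same step from other libraries, with other lanes and another genotype, which cannot be told apart. Of the 1597 windows called higher in Control, 1041 were measured there, and 337 of these (32.4%) exceeded KI LT-HSC by 10 points or more in KI MPP, while 28 lay below it by as much. Of the 1215 called lower, 706 were measured, and 79 (11.2%) were at least 10 points lower while 91 (12.9%) were at least 10 points higher. Over all 25977 windows measured in the KI pair, 3.95% were 10 points higher and 1.10% lower. The median KI difference was 4.44 points for the rises, 0.369 points for the falls and 1.06 points for all windows. Calls also differ by level, so windows at 20 to 80% in ST-HSC were set side by side. Of those called higher in Control, 215 of 432 (49.8%) were 10 points higher in the KI pair, against 233 of 1101 (21.2%) of those not called. Of those called lower, 57 of 231 (24.7%) were 10 points lower, against 6.81% of those not called, but 46 of the 231 (19.9%) were 10 points higher and their median KI difference was -0.383 points. Asking for 10 points on each strand in Control, 118 of 263 rises and 27 of 108 falls were at least 10 points apart in the same direction in the KI pair, and 6 rises and 16 falls in the opposite one.

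**Figure D5:**
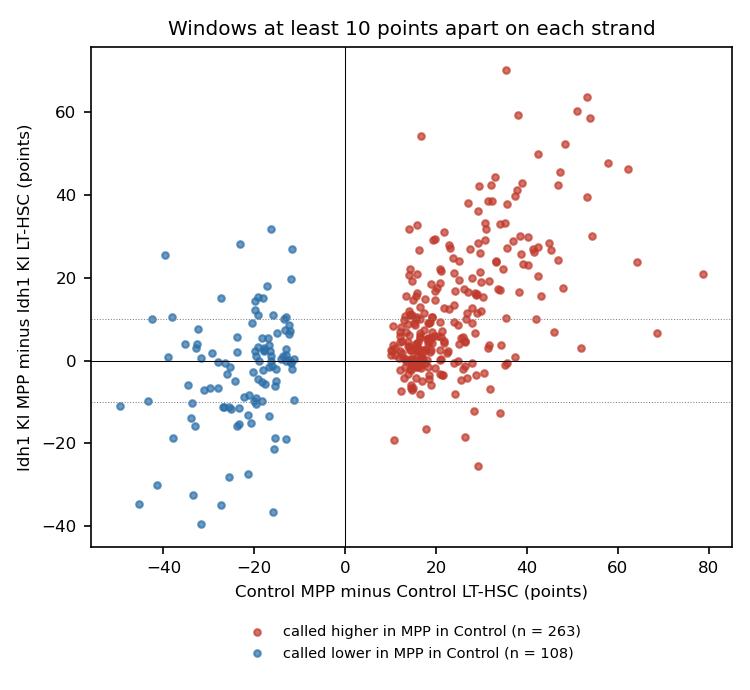
Difference between MPP and LT-HSC in the Idh1 KI pair (points) against that in the Control pair (points), for windows called in Control with 10 points on each strand, red where higher and blue where lower in Control MPP. Dotted lines mark 10 points in the KI pair: 118 of 263 red windows lie above the upper line and 27 of 108 blue windows below the lower one.

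Among the named windows, the KI difference was above 0 in 11 of 11 measured rises, at 10 points or more in 9. It was below 0 in 8 of 11 measured falls, at 10 points or more in 4. Most windows were higher in KI MPP in any case: over all windows measured there, 69.7% were above 0 and 29.6% below 0. The Hoxa5 window was at 87.7% in KI MPP and 23.5% in KI LT-HSC, and that of Gfi1 at 71.8% and 29.4%. Runx3 was at 87.5% in KI MPP and 39.8% in KI LT-HSC in the first window and Kcnn4 at 88.5% and 40.7%. The window beside miR-142 was at 38.2% in KI MPP and 69.1% in KI LT-HSC on the positions of each library, and differed by -30.0 points over the 10 positions both KI libraries share. Rnf220, the largest rise at 78.7 points in Control, was at 69.7% in KI MPP and 49.3% in KI LT-HSC. It differed by 20.9 points over the 27 positions both KI libraries share. Sp7 and Gm33655 moved least among the rises, by 6.66 and 2.96 points. Some of the list windows called higher in Control were measured in the KI pair. Of these, 6 of 8 in stem cell genes and 5 of 5 in the Hoxa cluster were at least 10 points higher there. The same held for 4 of 5 in erythroid and megakaryocyte genes. It held for 32.4% of all called rises and for 49.8% of those at 20 to 80% in ST-HSC. The count was 2 of 13 in other homeobox and PAX genes, 3 of 7 in imprinted genes, 1 of 5 in clustered protocadherin genes and 0 of 2 in the Hoxd cluster. In the imprinted and the protocadherin list 1 window each was at least 10 points lower. The 6 in stem cell genes included all 4 higher windows of Gata2, and the 4 in erythroid and megakaryocyte genes all 3 of Zfpm1. None of these Gata2 and Zfpm1 windows differed by 10 points on each strand in Control. Windows of 1 gene are not independent readings.

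ST-HSC lay between the 2 cell types in all 12 of the named rises and in 10 of the 11 named falls that were measured. Over all called windows it lay between them in 1106 of 1471 rises (75.2%) and 784 of 1078 falls (72.7%), against 38.7% of all windows. A wider gap leaves more room for a value in between, so these shares are no measure of a stepwise course. The Hoxa5 window was at 19.02% in the LT-HSC library, at 46.8% in the ST-HSC library and at 72.3% in the MPP library, and that of Gfi1 at 6.66%, 24.8% and 53.5%. The window beside miR-142 was at 52.1%, 27.4% and 10.7% in the same order of libraries.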

How the data were processed

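Per the file headers, the authors deposited for each CpG position and strand the coverage, a count of reads, and the share of those reads showing C or T, in percent. Per the submitters' processing notes, Bismark 0.10.0, SAMtools 1.0 and methylKit 0.9.1 were used with mm10. Their settings, any duplicate removal and the conversion rate were not given in the sources used here. Per the labels' protocols, each library took 10 ng of DNA and fragments of 150 to 400 bases. Every library held positions with at least 10 reads.

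Methylated reads were coverage times percent C, whole at 100% of positions within 0.01% of the coverage. The level of a window or gene end is the unweighted mean of its position levels. A call of either also asked that the difference pooled over reads had the same sign. Tests were two-sided Fisher exact tests on summed reads with Benjamini-Hochberg adjustment over all windows, gene ends or positions, written with Python 3.11.15, numpy 2.4.6, scipy 1.17.1 and numba 0.67.0 and tested on simulated data. Gene places and sequences came from RefSeq GRCm38.p6, where all 132427 positions inside the RefSeq promoter sequences lay at the expected base. A start side was used for 9659 gene ends and a CpG-rich end, with at least 3 times the positions of the other, for 2516. KI differences used positions shared by both KI libraries.

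Named were the 12 windows and 8 protein-coding gene ends with the largest called rise and fall that differed in 1 direction on each strand, up to 4 called gene ends per list, all Hoxa genes and a set of gate and methylation genes. The comparison, the 16 gene lists and the rules were chosen with earlier results of these data known. Alternatives changed the coverage minimum, strand, weighting, coverage limit, positions, thresholds and window borders.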

Additional observations from a re-analysis of the deposited data

Results flagged for a closer look

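Over all windows, 28 called higher in Control were at least 10 points lower in the Idh1 KI pair, and 91 called lower were at least 10 points higher. Among the largest rises and falls and the windows inside list genes, clustered protocadherins aside, 3 ran in opposite directions by at least 10 points in each pair. In N4bp3 the KI difference was 10.5 points and the Control difference -38.2 points. In Hoxc6 they were 12.2 points and -19.8 points, and in Gnas -12.6 points and 43.0 points. Each pair is 1 library a side, and the difference between the pairs was not tested.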

How the results depend on the processing

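The main counts were 1597 higher and 1215 lower windows, 256 and 120 gene ends, and 22437 and 19759 positions. The mean difference of 0.0442 points turned to -0.377 points when pooled over reads, and was 0.00542 points on the forward strand and 0.0828 points on the reverse strand. With a coverage of at least 20, 1072 windows were higher and 752 lower. On the forward strand alone 715 windows were higher and 497 lower, with 11044 and 9929 positions. On the reverse strand these were 737 and 472 windows and 11400 and 9832 positions. With at least 10 positions, 369 and 160 windows and 91 and 25 gene ends were called. At 25 points, 359 and 213 windows and 44 and 17 gene ends were called. Asking for both strands of a CpG gave 362 and 192 positions, and 50 points gave 8454 and 6830. In all these alternatives more features were higher than lower. Of the 159 alternative values that could be computed for the 40 named windows and gene ends, 158 kept their direction and their call. Features without a value under an alternative were not counted. With a coverage of at least 20, values were present for 24 of the 40, and on the forward strand alone for 28. Naming already required 1 direction on each strand, and for windows 10 points on each strand. The single-strand values are therefore no independent check. The 1 value that lost its call was that of the gene end of Sp7, 18.6 points higher on the reverse strand. Its adjusted p there was 0.494 by the Fisher exact test. No paired analysis was possible because each group is 1 pooled library. With 1 library a side, no spread between mice could be measured, and the few molecules behind each position limit single sites most.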
